A study of Homo sapiens with 6 samples.

Results

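The 10 genes described here are the 5 NF-kB subunit genes (NFKB1, NFKB2, RELA, RELB and REL), 3 genes for IkB inhibitor proteins (NFKBIA, NFKBIB and NFKBIE), TNFAIP3 and ICAM1. They were taken by symbol from the 21619 genes of the count files. All 10 were found, and all 10 had enough reads to be tested. Their mRNA was measured in polysome pull-downs from MDA-MB-231, a line of triple-negative breast cancer cells engineered to carry ribosomal protein L10a fused to EGFP. Antibodies to GFP bring down the tagged ribosomes with the mRNA they hold, and polyadenylated RNA from that material was sequenced. All cells were starved for 24 h in 0.2% serum and harvested after 6 h with or without 2 secreted factors: CXCL12, a chemokine that signals through CXCR4, and IGF1, a growth factor that signals through the IGF1 receptor. The higher dose group received CXCL12 at 300 ng/mL with IGF1 at 100 ng/mL. The lower dose group received CXCL12 at 30 ng/mL with IGF1 at 10 ng/mL. Untreated cells received neither factor. Each group held 2 libraries, lettered a and b and labelled as biological replicates. The factors were always given together, so their separate effects cannot be told apart, and the promoter of the tagged gene and whether the cells were 1 clone are not stated in the labels. RNA of the whole cells was not analysed here. A changed level in the pull-down can therefore be a change in the amount of an mRNA, in its ribosome loading or in its recovery, and these cannot be told apart.

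NF-kB is a family of dimeric transcription factors. RELA (p65), RELB and REL (c-Rel) carry domains that activate transcription, while NFKB1 and NFKB2 encode precursors (p105 and p100) that are processed to the DNA-binding proteins p50 and p52. IkB proteins hold the dimers in the cytoplasm until the IKK kinase complex marks them for destruction. In breast cancer cells of the triple-negative kind the pathway is often active without an added signal. NFKBIA (IkB-alpha) is itself a rapid NF-kB target and resets the pathway, NFKBIB and NFKBIE encode IkB-beta and IkB-epsilon, and TNFAIP3 (A20) is a ubiquitin-editing enzyme that shuts off signalling upstream of IKK. ICAM1 is a cell surface adhesion protein that binds leukocyte integrins and is a textbook NF-kB target gene.

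Because several of the genes are also targets of the pathway, the bases before their transcription starts were searched for kappaB motifs. RefSeq starts (GRCh38.p14) were found for 8 of the 10 genes, with 13 windows of 250 bases. RELB and NFKBIE had no entry. Both strands were searched for the 10-letter kappaB consensus, which has purines and pyrimidines at its inner positions, and for GGNNNTTCC, which can overlap it. The stretches below show a match in genes whose levels are described next, written 5′ to 3′ on the gene's own strand with every matched base in capitals.
NFKB1 chr4:102501300-102501329 (+): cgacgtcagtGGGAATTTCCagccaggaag
NFKBIA chr14:35404970-35404999 (-): ggtcggaaGGACTTTCCagccactcggcgc
NFKBIA chr14:35404811-35404840 (-): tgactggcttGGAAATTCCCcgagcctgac
NFKBIB chr19:38899939-38899968 (+): tgGGGAATTTCCCgcagggcGGAAGCTCCa
TNFAIP3 chr6:137867188-137867217 (+): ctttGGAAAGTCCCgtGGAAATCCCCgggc
ICAM1 chr19:10270924-10270953 (+): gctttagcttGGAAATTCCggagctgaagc
NFKB2 and REL also held matches, so 7 of the 8 genes had one in at least 1 window, and RELA had none in either of its windows. Over all 27305 genes of the promoter table the share with either motif was 25.6%. The consensus alone lay in 10.0% of the 35116 windows, and GGNNNTTCC in 17.1%. ICAM1 matched only GGNNNTTCC, from base 186 to base 178 before the start, whereas in NFKBIA, NFKBIB and TNFAIP3 the consensus matched too. These are matches of letters, in a build that differs from the hg19 build named for the counts.

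Each library held 26255079 to 30280322 reads on genes. Levels are given as CPM, the reads of a gene scaled to the library total, and the 3 reads that a count of 0 allows are worth 0.0991 to 0.114 CPM. Such limits cover counting error only. The 5 marker genes of the line (VIM, CD44, EGFR, CAV1 and AXL) summed to 6659 to 6796 CPM without treatment, 5860 to 5955 CPM at the lower dose, and 5203 to 5217 CPM at the higher dose, and all 5 fell at the higher dose. Markers that the line should lack were near 0 apart from EPCAM, the 5 summing to 11.6 to 14.0 CPM over all libraries, with KRT5 at 0. The markers of leukocytes, endothelium and fibroblasts summed to 107 CPM in both untreated libraries, 92.1 to 93.6 CPM at the lower dose and 80.3 to 84.9 CPM at the higher dose. ITGB2 and CD14 made up most of that sum, PTPRC reached at most 0.532 CPM, and CD3E and CDH5 were at 0. The part these shifts had in the results below was not tested. Genes were compared with edgeR's quasi-likelihood test, two-sided, over 13548 genes, and a gene was called when its Benjamini-Hochberg adjusted p was below 0.05. Levels are relative to all other genes, and with 2 libraries a group the p-values cover only spread among these libraries. The fit draws the spread of each gene toward that of all genes tested. An SE, interval or p-value can therefore be smaller than the gene's own libraries alone would give.

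At the higher dose the NF-kB genes split. NFKBIB, NFKBIE, TNFAIP3 and NFKB1 rose, ICAM1, NFKBIA and NFKB2 fell, and RELA, RELB and REL were not called. That is 7 of 10 genes, against 56.3% of all genes called in this comparison. The 4 that rose stand beside 28.1% of all genes called higher, and the 3 that fell beside 28.2% called lower, so these shares are near the background or rest on few genes. At the lower dose ICAM1 alone was called, and it was lower. This is 1 of 10 genes against 32.6% of all genes, with 16.7% of all genes called higher and 15.9% called lower. Between the doses, NFKBIB and NFKBIE were higher at the higher dose and no other member was called. These 2 of 10 stand against 34.0% of all genes, with 16.4% called higher and 17.6% called lower. The median log2 fold change of the 10 genes was 0.09 at the higher dose and 0.06 at the lower dose, against medians of -0.00083 and -0.0021 over all genes tested. Both comparisons with untreated cells share the untreated libraries. Leaving out untreated library a left 4 of the 10 genes called at the higher dose. At the lower dose, leaving out untreated library b gave 3 calls and leaving out lower dose library b gave 2. An offset for transcript length and GC content gave 4.

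**Figure D1:**
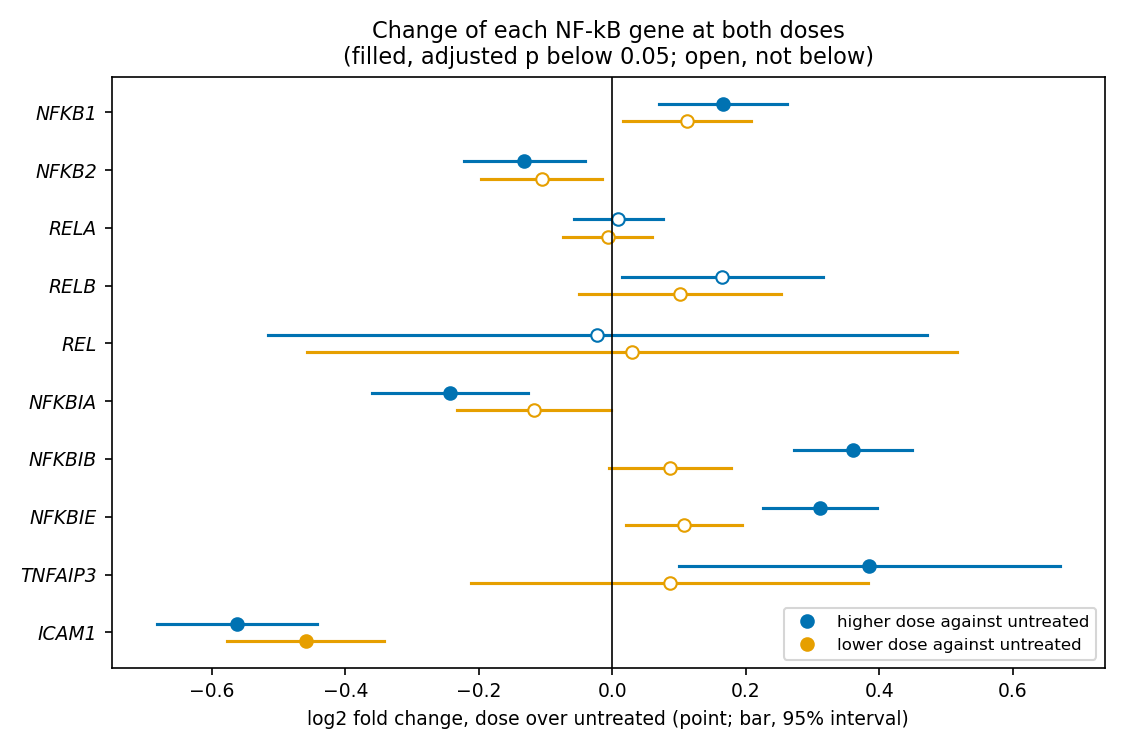
Log2 fold change of each gene at the higher dose (blue) and the lower dose (orange), each over untreated cells, with 95% intervals from the edgeR fit. Filled points passed an adjusted p of 0.05 and open points did not. ICAM1 is the one gene filled and far left at both doses, and the bars of REL and TNFAIP3 are the widest.

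Among the subunits, RELA was the most abundant mRNA per kb and showed no detected change. It had 161 and 157 CPM without treatment, 153 and 163 CPM at the lower dose, and 155 and 165 CPM at the higher dose. The 3 groups overlapped throughout. Its log2 fold change was 0.01 ± 0.03 (SE) at the higher dose (edgeR adjusted p = 0.834), with a 95% interval of -3.91% to 5.41%, and -0.01 ± 0.03 at the lower dose (edgeR adjusted p = 0.909). Its direction changed under some alternatives at both doses.

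NFKB1, the precursor of p50, rose slightly. Its levels were 39.7 and 40.9 CPM without treatment, 44.6 and 42.5 CPM at the lower dose, and 45.9 and 44.6 CPM at the higher dose. Every treated library lay above both untreated ones. The mean was 45.2 ± 0.883 CPM at the higher dose and 40.3 ± 0.856 CPM in untreated cells (SD, n = 2 each), a log2 fold change of 0.17 ± 0.05 (SE, edgeR adjusted p = 0.00245), and the call held under all 14 alternatives run. Under the lower dose it gave 0.11 ± 0.05 (edgeR adjusted p = 0.0675), which missed the threshold and passed it with the length and GC offset (0.14, edgeR adjusted p = 0.0200).

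NFKB2, which encodes the p100 precursor that also works as an inhibitor, moved the other way. It had 55.1 and 50.8 CPM without treatment, 48.9 and 49.4 CPM at the lower dose, and 48.9 and 47.6 CPM at the higher dose. The treated libraries were all below the untreated ones, and the untreated replicates lay further apart than either treated pair. The fall at the higher dose, a log2 fold change of -0.13 ± 0.05 (SE, edgeR adjusted p = 0.0112), was small. It was no longer called without untreated library a (-0.08, edgeR adjusted p = 0.219), without higher dose library b (-0.11, edgeR adjusted p = 0.103), with DESeq2 (-0.13, DESeq2 adjusted p = 0.0925) or with the length and GC offset (-0.06, edgeR adjusted p = 0.245). The lower dose gave -0.11 ± 0.05 (edgeR adjusted p = 0.0648), or -0.17 (edgeR adjusted p = 0.011) without untreated library b.

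RELB, the partner of p52 in the non-canonical branch, had 14.2 and 15.3 CPM without treatment, 16.3 and 15.4 CPM at the lower dose, and 17.5 and 15.7 CPM at the higher dose. Its untreated libraries lay just below the treated ones. The log2 fold change at the higher dose was 0.17 ± 0.08 (SE, edgeR adjusted p = 0.0569), which missed the threshold, and it passed without untreated library b (0.22, edgeR adjusted p = 0.042) or without higher dose library b (0.24, edgeR adjusted p = 0.0263). REL, the lymphoid-enriched c-Rel gene, had 34 to 37 reads in every library, or 1.15 to 1.37 CPM. Its groups overlapped at both doses, and at this depth a 95% interval of -30.1% to 38.6% at the higher dose was too wide to show a change of the size seen in most of the other genes. REL reads are also uncertain because 5702 of its exon bases lie in a second annotated RNA, AC010733.2, on the same strand.

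**Figure D2:**
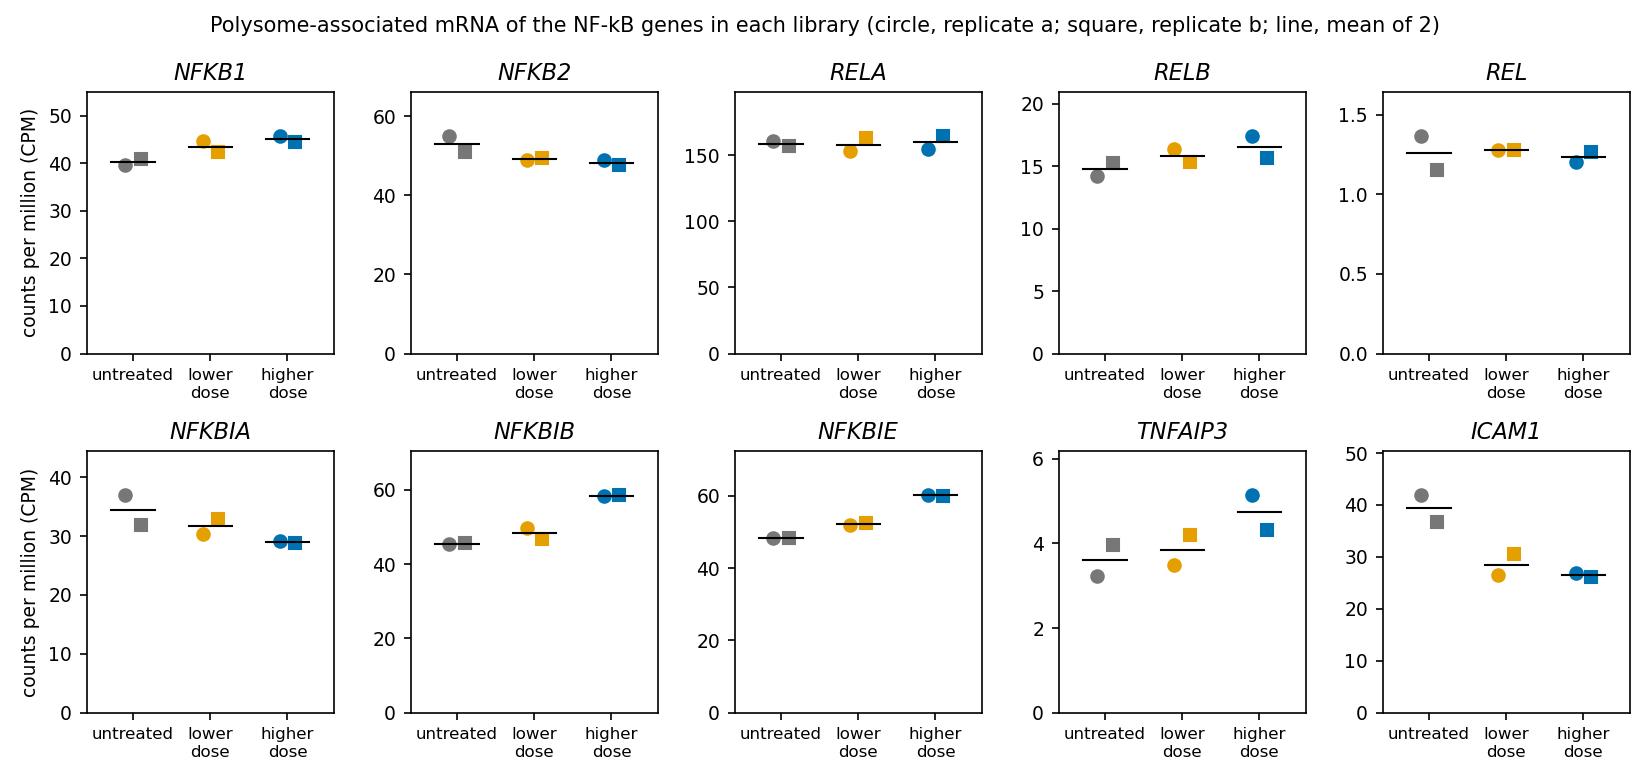
CPM of each of the 10 genes in every library, by dose, with a line at the mean of the 2 libraries of a group. Each panel has its own axis from 0. NFKBIB and NFKBIE step up at the higher dose, ICAM1 is low at both doses, and RELA is level at 153 to 165 CPM.

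The 3 inhibitor mRNAs moved apart at the higher dose. NFKBIB, the gene of IkB-beta, had 45.3 and 45.7 CPM without treatment, 49.8 and 46.9 CPM at the lower dose, and 58.3 and 58.7 CPM at the higher dose. Both higher dose libraries stood clear of the other 4. The mean was 58.5 ± 0.266 CPM at the higher dose and 45.5 ± 0.253 CPM in untreated cells (SD, n = 2 each), a log2 fold change of 0.36 ± 0.04 (SE, edgeR adjusted p = 4.62e-10). The lower dose gave 0.09 ± 0.05 (edgeR adjusted p = 0.145). Of its exon bases, 40 are shared with SIRT2 on the other strand.

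NFKBIE, the gene of IkB-epsilon, had the same order of group means with less spread. It had 48.4 CPM in each untreated library, 52.0 and 52.3 CPM at the lower dose, and 60.2 and 59.9 CPM at the higher dose. No group overlapped another. The log2 fold change was 0.31 ± 0.04 (SE, edgeR adjusted p = 8.97e-09) at the higher dose and 0.11 ± 0.04 (edgeR adjusted p = 0.0512) at the lower dose, where the call was missed narrowly and was made with the length and GC offset (0.14, edgeR adjusted p = 0.01). The higher dose calls of NFKBIB and NFKBIE held under all 14 alternatives run.

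NFKBIA, the feedback inhibitor, fell. It had 37.0 and 31.9 CPM without treatment, 30.4 and 33.0 CPM at the lower dose, and 29.2 and 28.9 CPM at the higher dose. The higher dose libraries were below all others, while the lower dose libraries lay around untreated library b. The mean was 29.02 ± 0.239 CPM at the higher dose and 34.5 ± 3.58 CPM in untreated cells (SD, n = 2 each), and the log2 fold change of -0.24 ± 0.06 (SE, edgeR adjusted p = 0.000344) corresponds to a fall with a 95% interval of -22.1% to -8.34%. Without untreated library a the change was -0.14 (edgeR adjusted p = 0.0656) and no longer called. The lower dose gave -0.12 ± 0.06 (edgeR adjusted p = 0.113), which became -0.17 (edgeR adjusted p = 0.0166) with the length and GC offset, -0.23 (edgeR adjusted p = 0.00362) without untreated library b and -0.18 (edgeR adjusted p = 0.045) without lower dose library b.

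The balance among inhibitors was computed per kb of transcript, since reads per gene grow with length. The length was that of the longest protein-coding GENCODE transcript of each gene. The inhibitor mRNAs together came to 66.0 and 63.0 CPM per kb in untreated cells, 65.4 and 65.7 at the lower dose and 72.3 and 72.1 at the higher dose. The subunit mRNAs together stayed at 80.6 to 83.6 CPM per kb in all 6 libraries. NFKBIA made up 25.9% and 25.7% of the inhibitor sum at the higher dose, against 36.0% and 32.6% in untreated cells. The share of NFKBIB was 41.8% and 42.1% at the higher dose, against 35.6% and 37.6% in untreated cells, and that of NFKBIE was 32.3% and 32.2% at the higher dose, against 28.4% and 29.8% in untreated cells. For each inhibitor, the shares at the higher dose and in untreated cells did not overlap. Within the subunits RELA held 59.4% to 61.9% of the sum in every library. These shares are of mRNA in the pull-down and say nothing of protein.

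**Figure D3:**
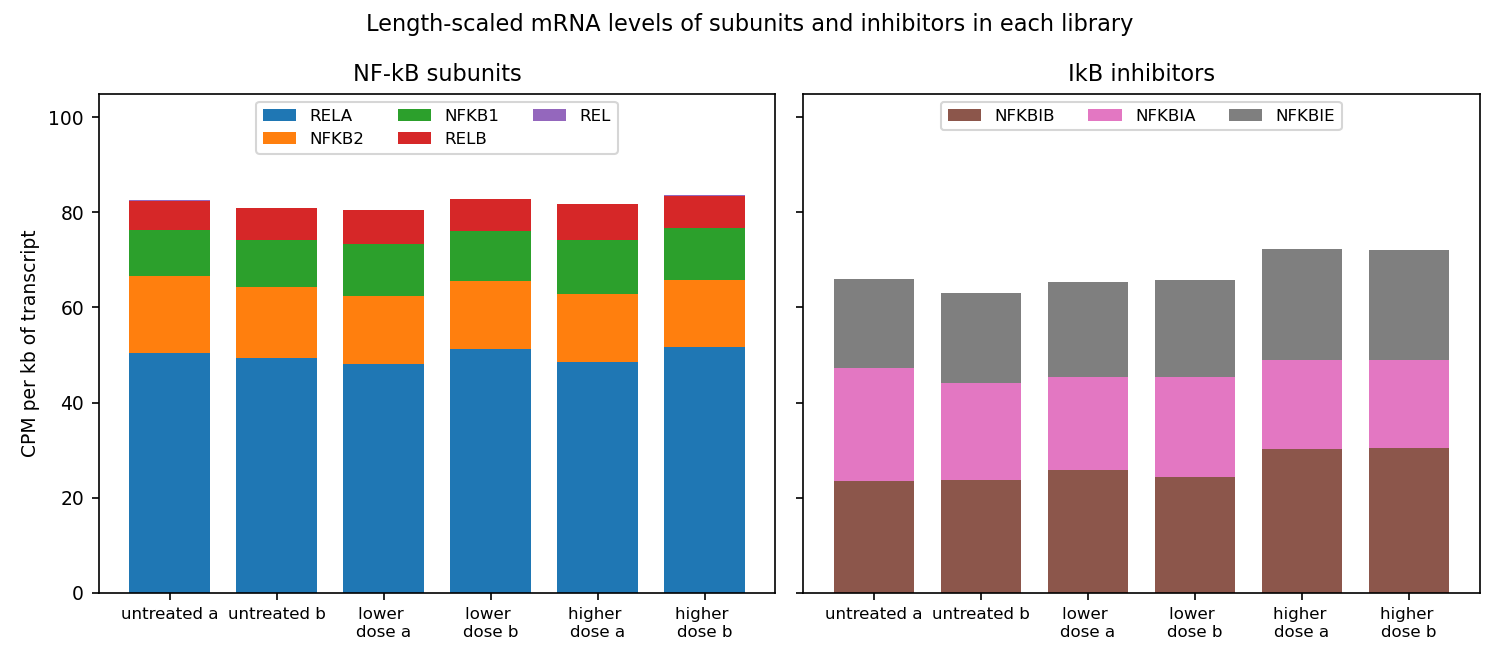
Stacked CPM per kb of transcript for the 5 subunit mRNAs (left) and the 3 IkB mRNAs (right) in each library. The subunit stacks are of like height at 80.6 to 83.6, and the inhibitor stacks are tallest at the higher dose, at 72.1 and 72.3, with a thinner NFKBIA band.

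TNFAIP3, the A20 gene, was low. It had 85 and 120 reads in untreated cells, 101 and 121 at the lower dose and 145 and 123 at the higher dose, which are 3.23 and 3.96 CPM, 3.50 and 4.18 CPM and 5.14 and 4.32 CPM in the same order. The higher dose libraries were above the others, and the lower dose libraries interleaved with the untreated ones. Its log2 fold change at the higher dose, 0.39 ± 0.14 (SE, edgeR adjusted p = 0.0180), was about the size of that of NFKBIB with an SE over 3 times as wide. Counting error alone was 8.30% to 10.8% per library. The call was lost with DESeq2 (0.39, DESeq2 adjusted p = 0.151), without untreated library a (0.25, edgeR adjusted p = 0.206) and without higher dose library a (0.25, edgeR adjusted p = 0.239), so it rests on single libraries. The lower dose value was 0.09 ± 0.15 (edgeR adjusted p = 0.707).

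ICAM1 moved the furthest of the 10 genes at both doses. It had 1103 and 1113 reads in untreated cells, 764 and 883 at the lower dose and 759 and 745 at the higher dose, which are 42.0 and 36.7 CPM, 26.5 and 30.5 CPM and 26.9 and 26.1 CPM in the same order. All 4 treated libraries were below both untreated ones. The mean was 26.5 ± 0.545 CPM at the higher dose and 39.3 ± 3.72 CPM in untreated cells (SD, n = 2 each), a log2 fold change of -0.56 ± 0.06 (SE, edgeR adjusted p = 7.82e-12) with a 95% interval of -37.7% to -26.4%. At the lower dose the mean was 28.5 ± 2.88 CPM, and the log2 fold change against untreated cells was -0.46 ± 0.06 (SE, edgeR adjusted p = 9.27e-09). Both calls held under all 14 alternatives run. By size of change ICAM1 stood at the 90.6th percentile of all genes tested at the higher dose and at the 95.2nd at the lower dose. The gene overlaps the antisense RNAs AC011511.5 over 815 exon bases and AC011511.2 over 61. The library kit does not mark strand, so their reads cannot be told apart from those of ICAM1.

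Between the doses, ICAM1 differed by -0.10 ± 0.06 (SE, edgeR adjusted p = 0.221) with a 95% interval of -14.7% to 1.68%, so a further fall at the higher dose was not detected. Without lower dose library a the difference was -0.20 (edgeR adjusted p = 0.0225), and without lower dose library b it was 0.0039, so the order of the doses rests on which library is kept. NFKBIB differed by 0.27 ± 0.04 (SE, edgeR adjusted p = 9.10e-07) and NFKBIE by 0.20 ± 0.04 (SE, edgeR adjusted p = 8.87e-05), both higher at the higher dose. For NFKBIA the difference was -0.13 ± 0.06 (edgeR adjusted p = 0.0964) and for TNFAIP3 0.30 ± 0.14 (edgeR adjusted p = 0.0928). Both passed with the length and GC offset, NFKBIA at -0.16 (edgeR adjusted p = 0.0238) and TNFAIP3 at 0.34 (edgeR adjusted p = 0.0488), and NFKBIA passed without lower dose library a (-0.18, edgeR adjusted p = 0.0358). The other 5 genes were not called, and their differences lay between -0.05 and 0.06.

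The genes whose course over the 6 libraries was nearest to that of ICAM1, by Euclidean distance between log2 CPM profiles centred on the untreated mean, were SLC12A7 (0.12), EPHA4 (0.14), FYCO1 (0.14), SEMA3B (0.16) and ZMYM3 (0.16). In all, 14 genes lay within 0.2 of it. SLC12A7, a potassium chloride cotransporter, had a log2 fold change of -0.54 under the higher and -0.43 under the lower dose. Nearest to NFKBIA were ZNF34 (0.05), LEPR (0.06), TRMT1L (0.06), TMEM67 (0.07) and ZNF436 (0.07), but 739 genes lay within 0.2 of it, so its course was a common one. Nearest to TNFAIP3 were DKK3 (0.15), RAD9A (0.15), BRI3BP (0.17), KCTD11 (0.19) and SIDT1 (0.19), the 5 genes within 0.2 of it. Counting error of the few TNFAIP3 reads adds to these distances, so the 5 do not show that its course was rare. None of the genes named here is a member of the NF-kB lists used here.

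In untreated cells, the order of levels per kb was RELA, at 49.9 ± 0.779 CPM per kb, then NFKBIB at 23.6 ± 0.131, NFKBIA at 22.1 ± 2.30, NFKBIE at 18.8 ± 0.0036, NFKB2 at 15.5 ± 0.877, ICAM1 at 12.1 ± 1.14, NFKB1 at 9.86 ± 0.21, RELB at 6.43 ± 0.32, TNFAIP3 at 0.759 ± 0.108 and REL at 0.112 ± 0.0135 (SD, n = 2). NFKBIB and NFKBIA overlapped in their ranges, and no other neighbours did. At the higher dose NFKBIE, at 23.3 ± 0.085 CPM per kb, stood above NFKBIA, at 18.6 ± 0.154, and NFKB1, at 11.1 ± 0.216, stood above ICAM1, at 8.16 ± 0.168. Both pairs had the other order in untreated cells. The level of REL per kb depends on its transcript length, 11255 nt in the annotation used.

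Shorter transcripts tended to be higher in treated cells across all genes, and length and log2 fold change had a Spearman correlation of -0.24 for the higher dose and -0.22 for the lower dose over 12956 genes with a length; genes of the same libraries are not independent replicates. The 10 genes run from 1558 nt (NFKBIA) to 11255 nt (REL). NFKBIA, the shortest, fell, and NFKBIB, at 1929 nt, rose. With an offset that takes out length and GC content, NFKB2 lost its call at the higher dose and the other 6 genes called there kept theirs.

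**Figure D4:**
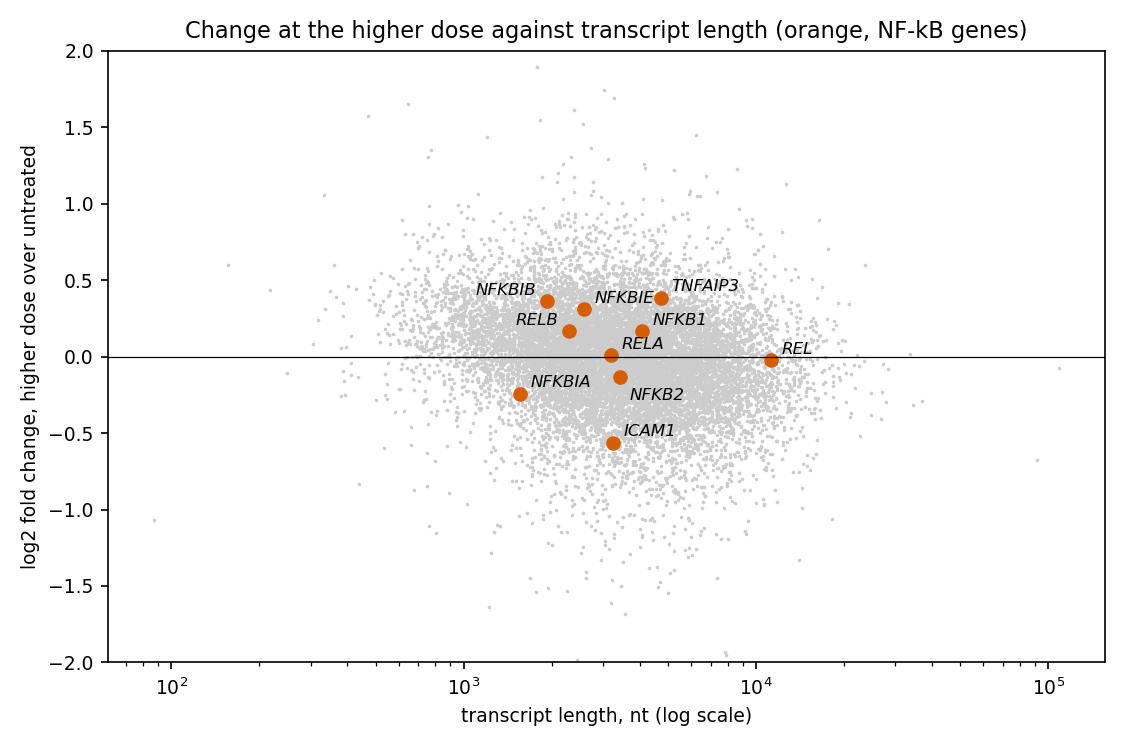
Log2 fold change at the higher dose over untreated cells against transcript length (log axis) for the genes with a length, the 10 NF-kB genes in orange; 5 genes lie beyond the vertical axis. ICAM1 and NFKBIA lie below zero, and NFKBIB, NFKBIE and TNFAIP3 above it.

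The rest of the pathway was read from 129 further genes in 9 lists, of which 116 had enough reads. At the higher dose 35 of the 116 rose and 35 fell, or 30.2% each, against 28.1% and 28.2% of all genes, and the median log2 fold change was 0.01. At the lower dose 19 rose and 22 fell (16.4% and 19.0%), against 16.7% and 15.9% of all genes. These shares are close to the background. The lists below group these genes by role in the pathway, and no test compares the lists.

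In the list of the IKK complex and activating kinases, 1 of 13 genes rose and 6 fell at the higher dose. The list also holds IKBKG, TAB1, TAB2, TAB3 and TANK, which are partner proteins and not kinases. Of all genes, 28.1% were called higher there and 28.2% lower. IKBKB, the IKK-beta kinase that phosphorylates IkB proteins, averaged 27.6 ± 0.753 CPM at the higher dose and 32.7 ± 0.378 CPM in untreated cells (SD, n = 2 each), a log2 fold change of -0.25 ± 0.05 (SE, edgeR adjusted p = 0.00011). MAP3K3 gave -0.33 ± 0.04, while MAP3K14 (NIK, the kinase of the non-canonical branch) gave -0.20 ± 0.05 and lost its call with the length and GC offset. The 1 gene that rose, CHUK (IKK-alpha), gave 0.13 ± 0.05 and was not called in 5 of its 14 alternatives. With DESeq2, with the offset or without higher dose library a, 3 of the 13 fell and 0 rose.

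Among receptor adaptors and ubiquitin ligases, 8 of 18 rose and 3 fell, beside 28.1% and 28.2% of all genes. BIRC3 (cIAP2), a ubiquitin ligase and a known NF-kB target, had 14.5 and 16.4 CPM without treatment, 21.1 and 19.6 CPM at the lower dose, and 29.05 and 29.2 CPM at the higher dose. No group overlapped another, and the log2 fold change was 0.91 ± 0.07 (SE, edgeR adjusted p = 7.62e-18) at the higher dose. Its neighbour in function BIRC2 (cIAP1) gave 0.55 ± 0.04, and TRAF1, an adaptor that binds both, gave 0.48 ± 0.08. TRAF6, the ligase of the interleukin-1 and Toll-like receptor arm, gave -0.27 ± 0.08. Of the 6 genes of the CARMA, BCL10 and MALT1 arm, 4 were tested and edgeR called 0 in all 3 comparisons, as did DESeq2. Unadjusted, MALT1 alone passed 0.05 in edgeR, at the lower dose, and there the length and GC offset called it higher (0.13, edgeR adjusted p = 0.0205).

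Of the A20 partners and other brakes, 3 of 10 tested genes rose and 4 fell, against 28.1% and 28.2% of all genes. RNF11, a subunit of the A20 complex, rose with a log2 fold change of 0.54 ± 0.04 (SE, edgeR adjusted p = 3.92e-17). Its partners ITCH, at -0.30 ± 0.04, and TAX1BP1, at -0.27 ± 0.03, fell, and so did CYLD, a deubiquitinase that restrains the pathway, at -0.20 ± 0.05. The other IkB-like proteins and nuclear repressors had 3 of 7 higher and 1 lower, against the same shares of all genes. The lower one was BCL3, an IkB-like protein that works with p50 and p52 dimers in the nucleus, with 17.9 and 18.7 CPM at the higher dose against 25.7 and 23.6 CPM in untreated cells and a log2 fold change of -0.43 ± 0.06 (SE, edgeR adjusted p = 1.07e-07).

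Of the cytokine, TNF family and Toll-like receptors, 4 of 16 tested rose and 5 fell, near the 28.1% and 28.2% of all genes. TNFRSF12A, the TWEAK receptor, gave 0.40 ± 0.03, TLR4 gave 0.31 ± 0.04 and TNFRSF10B, a TRAIL receptor, gave -0.19 ± 0.03.

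The target genes moved in both directions. Of the NF-kB target cytokines and chemokines, 9 of 15 tested rose at the higher dose and 1 fell. This stands against 28.1% of all genes called higher and 28.2% called lower. The median log2 fold change of the list was 0.30, although DESeq2 called 4 higher and 1 lower. CXCL8 (interleukin 8, listed as IL8) had 33.4 and 32.2 CPM without treatment, 44.5 and 40.2 CPM at the lower dose, and 61.6 and 60.7 CPM at the higher dose. No group overlapped another, and its log2 fold change at the higher dose was 0.90 ± 0.05 (SE, edgeR adjusted p = 7.74e-23). The 1 gene of that list that fell was CSF1, the macrophage growth factor, with 87.8 and 86.6 CPM at the higher dose against 159 and 145 CPM in untreated cells, a log2 fold change of -0.80 ± 0.04 (SE, edgeR adjusted p = 6.22e-26). CXCL3 and IL1A also rose in the main comparison, but both were low, at 1.29 and 1.16 CPM at the higher dose, and DESeq2 did not call them.

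Of 22 other target genes tested, 5 rose and 9 fell at the higher dose, against 28.1% and 28.2% of all genes. PTGS2 (cyclooxygenase-2) gave 0.64 ± 0.11 and CD83 gave 0.59 ± 0.06. PLAU, the urokinase gene, fell with 149 and 150.3 CPM at the higher dose against 270.0 and 263 CPM in untreated cells and a log2 fold change of -0.83 ± 0.03 (SE, edgeR adjusted p = 3.10e-30). LAMB3 gave -0.45 ± 0.03. Among the targets picked out here, ICAM1 thus shared its direction at the higher dose with CSF1, PLAU, LAMB3 and NFKBIA. It had the opposite direction to CXCL8, CXCL3, IL1A, BIRC3, PTGS2, CD83 and TNFAIP3. This tally is not a full set of targets. It leaves out members with a motif match, of which NFKB2 fell and NFKB1 and NFKBIB rose. The calls of NFKBIA, NFKB2, CXCL3, IL1A and TNFAIP3 depend on single libraries. Those of NFKB2, CXCL3, IL1A and TNFAIP3 also depend on the test.

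Within the ICAM family the members differed in direction. ICAM3, a leukocyte ICAM, had 19.3 and 19.9 CPM without treatment, 24.3 and 24.5 CPM at the lower dose, and 26.6 and 26.2 CPM at the higher dose, and rose with a log2 fold change of 0.43 ± 0.06 (SE, edgeR adjusted p = 2.29e-08). ICAM2 gave 0.50 ± 0.11 at the higher dose. ICAM5, a neuronal ICAM, had 6.35 and 6.21 CPM at the higher dose against 9.28 and 9.53 CPM in untreated cells. Its log2 fold changes were -0.58 ± 0.10 (SE, edgeR adjusted p = 1.99e-06) at the higher dose and -0.57 ± 0.10 (SE, edgeR adjusted p = 9.24e-06) at the lower dose. Like ICAM1, it was low at both doses. MSN (moesin), at -0.36 ± 0.03, and EZR (ezrin), at -0.35 ± 0.03, which link ICAM1 to the actin cortex, also fell at the higher dose. Of the 11 tested genes in the list 2 rose and 6 fell, against 28.1% and 28.2% of all genes. VCAM1, the other classic NF-kB adhesion target, had at most 1 read in any library, below the 3 reads that a count of 0 allows.

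**Figure D5:**
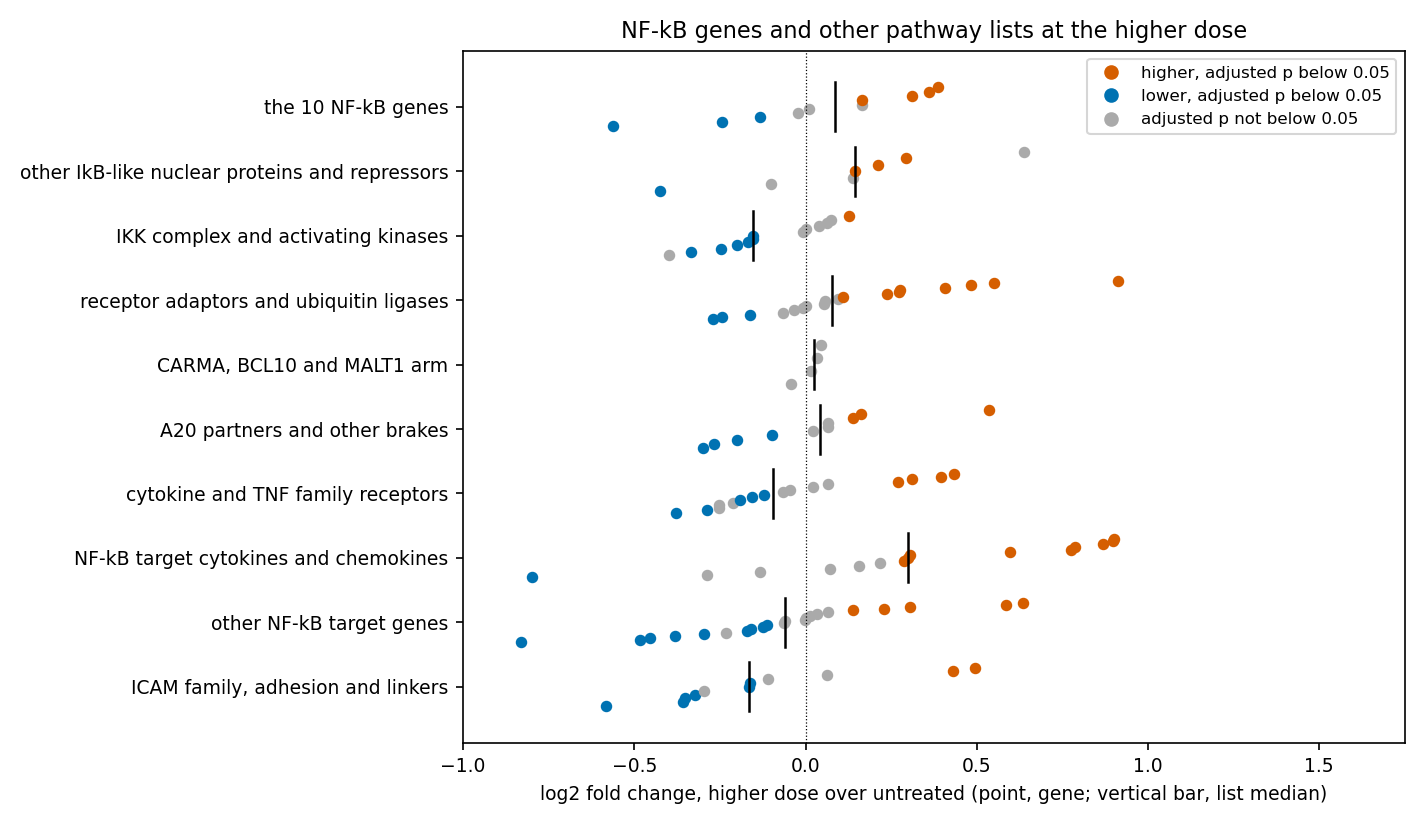
Log2 fold change at the higher dose over untreated cells for the 10 NF-kB genes and the tested genes of the 9 further lists, with orange for genes called higher, blue for genes called lower, grey for genes not called and a bar at each list's median. Target cytokines lie mostly to the right of zero with a median of 0.30, and ICAM family and linker genes mostly to the left with a median of -0.16.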

How the data were processed

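Polysome pull-down libraries of MDA-MB-231 cells were made with the TruSeq RNA kit v2, per the labels' protocols. The authors deposited unnormalized counts, whole reads for each gene symbol, with 1 file a library. The submitters' processing notes name CASAVA 1.8.1, TopHat 1.4.0, HTSeq and hg19; annotation, counting mode and strand setting are not stated there. The 5 HTSeq summary lines, 9.40% to 10.2% of a library's reads, were left out. Groups came from the treatment labels. Replicates of a group differed by more than counting noise (chi-square per degree of freedom 1.52 to 1.98) and each was kept.

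All 6 libraries entered 1 edgeR 4.0.16 fit (R 4.3.3, TMM, filterByExpr, robust quasi-likelihood, 3 group means, 3 residual degrees of freedom); p-values were adjusted by Benjamini-Hochberg over 13548 genes. An SE is the size of the log2 change divided by the root of the F statistic. The spread in that statistic is shared in part over genes, so the intervals use more than the 3 residual degrees of freedom. CPM used library totals multiplied by the TMM factors, which ran from 0.997 to 1.003. Alternatives were DESeq2 1.42.0, other scalings, no filter, 2 groups only, a replicate block, a length and GC offset (loess, span 0.5) and each library left out. Lengths and overlaps are from GENCODE 29, promoters from RefSeq. From each further list at most the 3 largest rises and 3 largest falls among called genes were eligible for naming. The members, lists and rules were chosen with earlier results of these data known. The tests were also run on simulated counts that gave all genes a common spread. That setting is simpler than these libraries, so it does not show how the tests do on them.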

Additional observations from a re-analysis of the deposited data

How the results depend on the processing

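For the 10 genes in 3 comparisons, 420 values under 14 alternatives each were compared with the main ones: 377 kept their direction and side of the threshold, 9 lost a call, 17 gained one and 17 changed sign. For the other named genes 946 of 1050 values kept both, 104 lost a call and none changed sign. DESeq2 called 2484 genes at the lower dose against untreated cells (edgeR 4418) and 2703 between the doses (edgeR 4612), and of the 116 further pathway genes 10 higher and 13 lower at the lower dose and 14 and 15 between the doses. The lists were put through these alternatives after their main values were seen. The length and GC offset, with or without the replicate block, called 4 of the 10 genes at the lower dose and 4 between the doses. Leaving out 1 library gave 4 to 8 of the 10 at the higher dose, 1 to 3 at the lower dose and 2 to 4 between the doses; a group left with 1 library was assumed to vary like the others. The replicate letters did not pair the libraries (correlations of same-lettered deviations 0.0025, -0.045 and -0.035), and with the replicate block 7561 genes and 7 of the 10 were called at the higher dose.

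Sign changes all fell in comparisons where the gene was not called in the main fit. The main log2 fold change furthest from 0 among them was -0.10, for ICAM1 between the doses. The cause was not tested. With the offset RELA gave 0.0333 at the lower dose and REL 0.0221 at the higher dose, and with the replicate block added 0.0335 and 0.0201. Leaving out 1 library in turn gave ranges that cross 0 for RELA (-0.038 to 0.053 at the higher dose, -0.052 to 0.036 at the lower dose and -0.031 to 0.061 between the doses), REL (-0.15 to 0.094 and -0.099 to 0.15 at the higher and the lower dose), TNFAIP3 at the lower dose (-0.049 to 0.25) and, between the doses, RELB (-0.015 to 0.14) and ICAM1 (-0.20 to 0.0039).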
